A study of Mus musculus with 3 samples.

Results

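The genes of MHC class II antigen presentation were followed through single cells of the mouse heart that had been sorted on surface Lin28 and surface cKit. The set was 8 genes, chosen by symbol and function: H2-Aa, H2-Ab1, H2-Eb1, H2-DMa, H2-DMb1, Cd74, Ciita and Ctss. All 8 were found, among 17126 genes listed over the 3 libraries, and all 8 were detected in each library. Adult hearts were minced and digested with collagenase II, a brief low-speed spin removed cardiomyocytes and debris, and the interstitial cells were sorted by flow cytometry. The groups were Lin28+/cKit+ cells (1176 cells), Lin28+/cKit- cells (681 cells) and Lin28-/cKit- cells (3976 cells), with 1 droplet-based 3′ single-cell library for each. Surface Lin28 and surface cKit were the only properties given as different between the groups. The labels give no strain, genotype, age, sex or number of hearts, and say nothing of pooling or of how cells were filtered.

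The 8 genes fall into 4 roles. H2-Aa (chr17:34282744-34287823, minus strand) and H2-Ab1 (chr17:34257689-34269419, plus strand) encode the alpha and beta chains of the I-A molecule, and H2-Eb1 (chr17:34305867-34316674, plus strand) the beta chain of the I-E molecule. Cd74 (chr18:60803848-60812652, plus strand) encodes the invariant chain, and Ctss (chr3:95526786-95556403, plus strand) cathepsin S, a protease that cleaves it. H2-DMa (chr17:34119541-34139101, plus strand) and H2-DMb1 (chr17:34153072-34160230, plus strand) encode the H2-DM pair. Ciita (chr16:10480059-10528418, plus strand) encodes the co-activator. Positions are those of GENCODE on mm10. H2-DMb1 has a close copy, H2-DMb2 (chr17:34143307-34151555, plus strand), beside it, so the split of UMIs between both is uncertain and H2-DMb2 is given beside H2-DMb1.

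MHC class II molecules are pairs of an alpha and a beta chain that carry peptides of endocytosed protein to the surface of macrophages, dendritic cells and B cells, where CD4+ T cells read them. The chains are assembled with the invariant chain, proteases of the endosome trim that chain down to a short fragment, and the H2-DM pair then exchanges the fragment for peptide. Transcription of most of these genes depends on the co-activator encoded by Ciita, which binds no DNA itself and is held by the factors bound at the X and Y boxes of class II promoters. In the heart, class II genes are best known from resident and recruited macrophages, and endothelial cells can also express them when stimulated by interferon gamma.

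Since the 8 genes moved largely together, their promoters are shown where the RefSeq table (GRCm38.p6, 250 bases before to 50 after the start) holds one. The table held a promoter for 5 of the 8 genes, and H2-Ab1, Ciita and Cd74 had no entry. The 3 promoters with the clearest match to class II boxes are printed on the gene's strand. Capitals mark the letters CTGATTGG or the core ATTGG of the Y box and AGNNACNGA for the X box, each searched on both strands, the longer Y match containing the core.
H2-Aa, chr17:34287774-34288073, minus strand: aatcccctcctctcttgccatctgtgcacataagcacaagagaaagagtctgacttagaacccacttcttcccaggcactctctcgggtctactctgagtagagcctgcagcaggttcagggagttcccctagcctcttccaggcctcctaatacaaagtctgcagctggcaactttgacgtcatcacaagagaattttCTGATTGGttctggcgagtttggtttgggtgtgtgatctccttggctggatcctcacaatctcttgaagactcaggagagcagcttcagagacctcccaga
H2-Eb1, chr17:34305617-34305916, plus strand: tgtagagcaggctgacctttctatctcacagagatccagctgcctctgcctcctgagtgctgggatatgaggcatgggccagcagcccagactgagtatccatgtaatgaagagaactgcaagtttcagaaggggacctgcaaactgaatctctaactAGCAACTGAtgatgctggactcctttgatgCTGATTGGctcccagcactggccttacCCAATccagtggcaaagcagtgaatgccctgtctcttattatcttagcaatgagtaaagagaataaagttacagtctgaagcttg
H2-DMb1, chr17:34152941-34153240, plus strand: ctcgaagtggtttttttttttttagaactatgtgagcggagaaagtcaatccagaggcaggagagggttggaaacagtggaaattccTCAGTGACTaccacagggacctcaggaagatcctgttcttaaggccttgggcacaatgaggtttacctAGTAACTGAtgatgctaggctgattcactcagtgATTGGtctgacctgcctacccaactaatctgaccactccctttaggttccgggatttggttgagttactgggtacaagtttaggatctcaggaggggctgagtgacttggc
H2-Aa carried the long Y match from base -51, counted from the start. H2-Eb1 carried it from base -62 with an X match from base -92, and a reverse core from base -35. H2-DMb1 carried the core alone from base -61, with X matches from bases -95 and, on the reverse strand, -163. Of 32851 mouse promoters of the same length, 37.4% held the core, 4.10% the long Y match, 17.7% an X match, and 0.737% both the long Y match and an X match. H2-DMa, with 2 RefSeq starts, held only a core at base -198 of 1 of them, and Ctss held none of these letters. The H2-DMa windows, chr17:34122582-34122881 and chr17:34125268-34125567, lie inside the gene and do not reach its first base as given above. Other starts of H2-DMa were not searched. A match describes the letters in this window and shows no binding.

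The values deposited were natural logarithms of scaled counts, from which whole counts of unique molecular identifiers (UMIs, each standing for 1 captured transcript) were recovered. The Lin28+/cKit+, Lin28+/cKit- and Lin28-/cKit- libraries held 10400648, 7401174 and 34031955 UMIs, with medians of 8068.5, 9628 and 8630 per cell. Levels are CPM, the UMIs of a gene per 1000000 UMIs of the cells summed. Each UMI marks 1 end of 1 transcript, so CPM need no correction for length. With 1 library per group no difference between groups has a replicate, and no test was possible. All 95% intervals (exact Poisson for levels, exact conditional binomial for ratios) cover counting error only. A gene was called higher or lower where its ratio was at least 1.5 in either direction, its interval left out 1 and both libraries together held at least 20 of its UMIs. Cells were clustered jointly without the class II genes or Kit, and clusters were named from marker genes. In all, 9 cell barcodes occurred in more than 1 library, 8 of them in the Lin28+/cKit+ and Lin28-/cKit- libraries and 1 in both Lin28+ libraries. Both cells of each shared barcode fell in the same class. Of the 8 pairs, 7 lay in a shallow unnamed cluster (cluster 13), of which they made up all 7 Lin28-/cKit- cells, and no count of called genes below changed when these cells were left out.

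Class II genes stood far higher in both Lin28+ libraries than in the Lin28-/cKit- library. Cd74 had 8753 CPM in Lin28+/cKit+ cells and 6217 in Lin28+/cKit- cells, against 264 in Lin28-/cKit- cells. H2-Aa had 2975 in Lin28+/cKit+ cells, 2185 in Lin28+/cKit- cells and 76.9 in Lin28-/cKit- cells, and H2-Ab1 had 2542, 1763 and 87.3 in the same groups. Of the chains and the invariant chain, each was thus lowest in the library without surface Lin28 and highest in the library with both surface proteins. The same order held for the processing genes. Ctss had 576, 491 and 8.43 CPM in Lin28+/cKit+, Lin28+/cKit- and Lin28-/cKit- cells, and H2-DMa had 290, 195 and 9.58. H2-DMb1 followed at 127, 73.5 and 5.26, and H2-Eb1 at 106, 79.3 and 4.70. The scarcest of the 8, the co-activator gene Ciita, had 46.4 CPM in Lin28+/cKit+ cells, 31.5 in Lin28+/cKit- cells and 1.44 in Lin28-/cKit- cells, from 483, 233 and 49 UMIs.

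In Lin28+/cKit- over Lin28-/cKit- cells all 8 genes were called higher, where 22.1% of 13765 genes tested were called higher and 25.4% lower. Their median log2 ratio was 4.40, against -0.05 for all genes tested. The protease gene Ctss had the highest ratio, 58.2 (95% interval 51.6 to 65.9), and H2-DMb1 the lowest, 14.0 (11.8 to 16.6). In Lin28+/cKit+ over Lin28-/cKit- cells all 8 were again called higher, against 20.5% of 13833 genes called higher and 29% lower, with a median log2 ratio of 4.97 against -0.15. Ctss again had the highest ratio, 68.3 (60.7 to 77.2), and the I-E chain gene H2-Eb1 the lowest, 22.5 (19 to 26.7). Both comparisons share the Lin28-/cKit- library. The levels of 10 macrophage marker genes moved with them, at a summed 10857 CPM in Lin28+/cKit+ cells and 9530 in Lin28+/cKit- cells, against 48.2 in Lin28-/cKit- cells, all 10 detected in each. In a sum over a whole library, more cells of a type and more RNA of a gene per cell cannot be told apart, so the cells behind these sums are taken up below.

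Between the Lin28+ libraries the whole-library differences were small. There, 1 of the 8 genes was called higher in Lin28+/cKit+ than in Lin28+/cKit- cells, H2-DMb1 at 1.73 (1.57 to 1.92), where 1.77% of 12200 genes were called higher and 8.02% lower. The other ratios lay between 1.17 (1.13 to 1.22) for Ctss and 1.49 (1.40 to 1.59) for H2-DMa, with every interval above 1. The median log2 ratio was 0.51, against -0.10 for all genes. H2-DMb2, the copy of H2-DMb1, had 34.0 CPM in Lin28+/cKit+ cells, 11.9 in Lin28+/cKit- cells and 2.64 in Lin28-/cKit- cells, a ratio of 2.86 (2.26 to 3.66) between the Lin28+ libraries. The count rests on the scaling. With TMM, a scaling that leaves out extreme genes and whose factor ratio was -0.11 on the log2 scale, each ratio is raised by that amount and 5 of the 8 genes were called higher, all but H2-Aa, H2-Eb1 and Ctss.

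The other genes of the pathway moved less uniformly. Their counts are read against the shares of all genes given above, 20.5% higher and 29% lower in Lin28+/cKit+ and 22.1% higher and 25.4% lower in Lin28+/cKit- over Lin28-/cKit- cells. Of 15 genes of class II transcription, 4 were called higher and 1 lower in Lin28+/cKit+ over Lin28-/cKit- cells, and 5 higher and 0 lower in Lin28+/cKit- over Lin28-/cKit- cells. Spi1, the myeloid factor PU.1, was 57.1 and 44.5 times higher in Lin28+/cKit+ and Lin28+/cKit- cells than in Lin28-/cKit- cells. Irf4 and Irf8, interferon regulatory factors of blood cells, were 10.3 and 9.68 times and 3.52 and 2.61 times higher in the same pairs. Nfya, a subunit of the factor that binds the Y box, had ratios of 1.52 and 1.80 in the same pairs. The 4 of 15 genes called higher in Lin28+/cKit+ cells lie close to the share of all genes. The median log2 ratio of this list was 0.18 in Lin28+/cKit+ and 0.34 in Lin28+/cKit- over Lin28-/cKit- cells. Of 11 endosomal protease and processing genes measured, 5 were called higher and 3 lower in Lin28+/cKit+ over Lin28-/cKit- cells, and 4 higher and 2 lower in Lin28+/cKit- over Lin28-/cKit- cells. Ctsc, cathepsin C, was 90.8 times higher in Lin28+/cKit+ and 78.1 times higher in Lin28+/cKit- cells, and Lgmn, an asparagine-specific endopeptidase, 7.67 and 7.60 times. Ctsk, cathepsin K, a collagen-degrading protease, was lower, with ratios of 0.0590 and 0.0849, and Ctsl, cathepsin L, which cleaves the invariant chain in thymic epithelium, was lower at 0.310 and 0.343.

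Of 8 costimulation genes measured, 6 were called higher in each of these pairs, with 2 lower in Lin28+/cKit+ and 1 lower in Lin28+/cKit- over Lin28-/cKit- cells. Cd86, which engages CD28 on T cells, was 77.9 and 70.2 times higher in Lin28+/cKit+ and Lin28+/cKit- cells, and Cd83, whose product stabilises class II molecules at the surface of dendritic cells, 28.3 and 23.3 times. Icosl, the ligand of ICOS, had ratios of 0.442 and 0.578. Of 16 genes of class I presentation, 11 were called higher in each pair and 0 lower, at lower ratios than those of the class II genes. B2m, the light chain of class I molecules, had ratios of 2.25 and 2.61, the class I gene H2-Q7 3.79 and 3.60, and Nlrc5, the class I counterpart of Ciita, 6.0 (3.28 to 11.3) and 6.13 (3.19 to 12). Of 13 genes of interferon gamma signalling, 3 were called higher and 3 lower in Lin28+/cKit+, and 4 higher and 3 lower in Lin28+/cKit- over Lin28-/cKit- cells, with medians of 0.18 and 0.33 on the log2 scale. The 3 of 13 called higher in Lin28+/cKit+ cells again lie close to the share of all genes. Gbp4, an interferon-induced GTPase, had ratios of 2.10 and 2.06, Iigp1, another such GTPase, 1.75 and 2.24, and Socs1, an inhibitor of the signal, 0.228 and 0.289. Ifng itself, called lower in both pairs, had no UMI in either Lin28+ library and 1.12 CPM in Lin28-/cKit- cells. Of the 5 genes for receptors and ligands of the invariant chain protein, Cxcr4 was 17.2 and 26.5 times higher and Cd44 4.77 and 4.73 times higher in Lin28+/cKit+ and Lin28+/cKit- cells, while Mif, the cytokine that binds the invariant chain, had ratios of 0.572 and 0.588. Ackr3, a further receptor of that cytokine, had 0.147 and 0.234.

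Of 13 trafficking and turnover genes measured in Lin28+/cKit+ over Lin28-/cKit- cells, 5 were called higher and 1 lower, and of 14 in Lin28+/cKit- over Lin28-/cKit- cells 4 were called higher and 1 lower. March1, a ubiquitin ligase that removes class II molecules from the cell surface, was 28.9 times higher in Lin28+/cKit+ and 25.4 times in Lin28+/cKit- cells, and Cd37, a tetraspanin of blood cells, 11.5 and 15.6 times. Tfec, a transcription factor of macrophages, had 5.77 CPM in Lin28+/cKit+ cells and 7.03 in Lin28+/cKit- cells and no UMI in Lin28-/cKit- cells. Cd63, a tetraspanin of late endosomes, was lower, at 0.449 and 0.439. The other class II genes were called higher in both pairs, 3 of the 3 with enough UMIs. Besides H2-DMb2 these were H2-Ob and H2-Oa, the chains of the H2-O pair that holds H2-DM in check, at 9.0 and 2.63 in Lin28+/cKit+ and 6.32 and 1.91 in Lin28+/cKit- over Lin28-/cKit- cells. Of the listed genes, H2-Ea, H2-Ea-ps, Ifi30 and Tnfsf4 were not analysed here.

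Nearly all class II UMIs of the Lin28+ libraries came from macrophage-like cells, the class named from 10 markers such as Adgre1, Csf1r and C1qa. This class held 612 of the 1176 Lin28+/cKit+ cells (52.0%), 276 of the 681 Lin28+/cKit- cells (40.5%) and 18 of the 3976 Lin28-/cKit- cells (0.45%). Macrophage-like cells held 94.5% of the UMIs of the 8 genes in the Lin28+/cKit+ library and 96.7% in the Lin28+/cKit- library, against 27.3% in the Lin28-/cKit- library. The class II UMIs of the Lin28-/cKit- library were spread over several small clusters instead. There, 14 cells of an unnamed cluster (I1, led by Ifitm1, the fibroblast chemokine gene Ccl11 and the endothelial gene Vwf, with markers of dendritic cells and neutrophils as well) held 30.8%, 8 dendritic cell-like cells 17.5% and 20 B cell-like cells 9.02%. The 2767 fibroblast-like and 925 endothelial-like cells, which made up most of that library, held 3.90% and 1.05%.

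**Figure D1:**
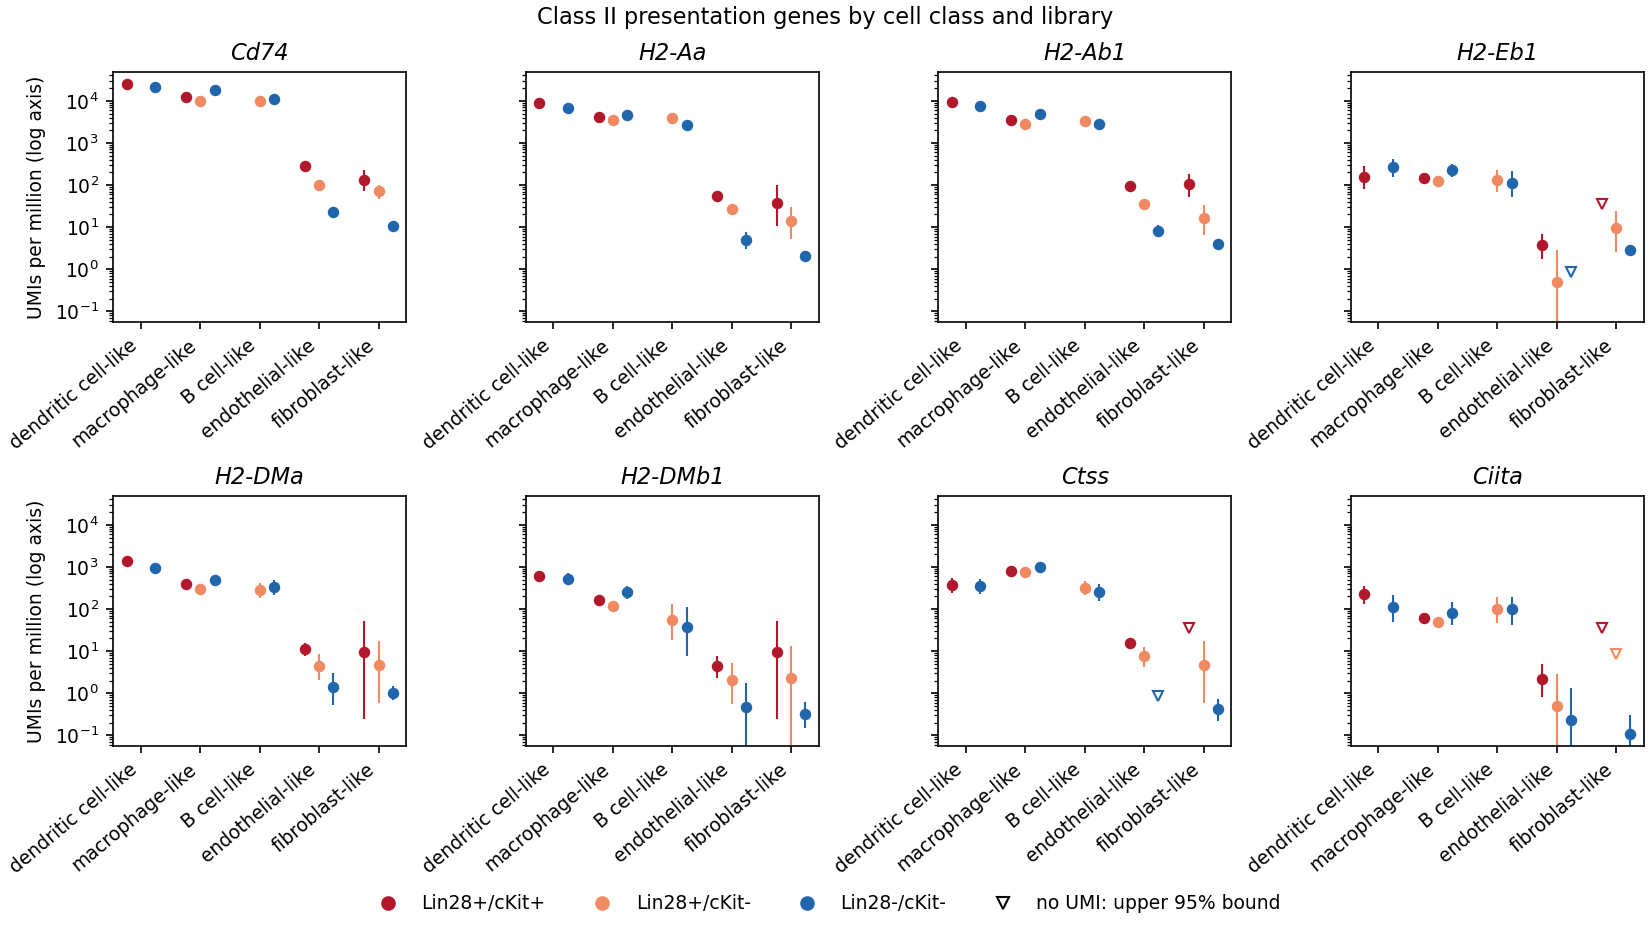
Levels of the 8 genes in CPM (log axis) by cell class and library, with 95% Poisson intervals, for classes with at least 4 cells. Open triangles give the upper bound where no UMI was found; dendritic cell-like, macrophage-like and B cell-like cells lie above endothelial-like and fibroblast-like cells in every panel, least clearly for H2-DMb1, where 3 UMIs stand behind the lowest B cell-like value.

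Among cell classes the order of levels differed by gene. For Cd74, dendritic cell-like cells stood highest, with 24549 CPM in 4 Lin28+/cKit+ cells and 21429 in 8 Lin28-/cKit- cells. Unnamed cluster I1 followed at 18569 in Lin28-/cKit- cells, and its interval overlapped that of the 18 macrophage-like Lin28-/cKit- cells, at 17599. Macrophage-like cells had 12068 in Lin28+/cKit+ cells and 9724 in Lin28+/cKit- cells, next to B cell-like cells with 10020 in the 10 Lin28+/cKit- cells and 11203 in the 20 Lin28-/cKit- cells. The intervals of macrophage-like and B cell-like Lin28+/cKit- cells overlapped. The H2-DM genes had the same leading class, with H2-DMa at 1370 CPM in dendritic cell-like Lin28+/cKit+ cells and 931 in dendritic cell-like Lin28-/cKit- cells, against 392 in macrophage-like Lin28+/cKit+ cells, 306 in macrophage-like Lin28+/cKit- cells and 499 in macrophage-like Lin28-/cKit- cells. H2-DMb1 had 619 in dendritic cell-like Lin28+/cKit+ cells and 528 in dendritic cell-like Lin28-/cKit- cells, with 168, 116 and 253 in macrophage-like cells of the Lin28+/cKit+, Lin28+/cKit- and Lin28-/cKit- libraries.

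Ctss had another order, with macrophage-like cells highest of the named classes in each library. It had 818 CPM in macrophage-like Lin28+/cKit+ cells, 776 in macrophage-like Lin28+/cKit- cells and 977 in macrophage-like Lin28-/cKit- cells. An unnamed cluster (I5), with 1 Lin28+/cKit+ cell, had 944 there. Dendritic cell-like cells had 369 in the Lin28+/cKit+ and 347 in the Lin28-/cKit- library, and B cell-like cells 323 in the Lin28+/cKit- and 249 in the Lin28-/cKit- library, with intervals that overlapped. B cell-like cells differed in the H2-DM beta genes: H2-DMb2 had 323 CPM in Lin28+/cKit- and 298 in Lin28-/cKit- B cell-like cells, where H2-DMb1 had 55.7 and 37.3, from 5 and 3 UMIs. In macrophage-like cells H2-DMb1 was the more abundant of both. Ciita had 224 CPM in dendritic cell-like Lin28+/cKit+ cells and 111 in dendritic cell-like Lin28-/cKit- cells, about 100 in B cell-like cells, and 62.0, 48.3 and 82.0 in macrophage-like Lin28+/cKit+, Lin28+/cKit- and Lin28-/cKit- cells, where neighbouring intervals overlapped except between the Lin28+ libraries. Single cells of high depth carried much of the small classes: 1 T cell-like Lin28+/cKit+ cell with 23612 UMIs held 475 Cd74 UMIs, and whether it was a doublet was not tested.

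Set against Cd74, H2-Ab1, H2-DMa and Ciita stood at similar numbers of UMIs in macrophage-like cells of the 3 libraries. Ctss did not keep to Cd74, with 5851 UMIs beside 86268 Cd74 UMIs in Lin28+/cKit+ and 3553 beside 44508 in Lin28+/cKit- cells. Per 100 Cd74 UMIs there were 34.1 H2-Aa UMIs in Lin28+/cKit+, 35.1 in Lin28+/cKit- and 26.0 in Lin28-/cKit- cells. For H2-Ab1 there were 28.4, 28.3 and 27.7, and for H2-DMa 3.25, 3.15 and 2.84, in the same groups. Ciita had 0.514, 0.497 and 0.466 UMIs per 100 Cd74 UMIs. H2-Aa thus lay lower in the 18 Lin28-/cKit- cells, whose ratio of H2-Aa to H2-Ab1 UMIs was 0.940 (0.844 to 1.05), against 1.20 (1.18 to 1.22) in Lin28+/cKit+ and 1.24 (1.21 to 1.27) in Lin28+/cKit- macrophage-like cells. In dendritic cell-like cells of all libraries that ratio was 0.890 (0.821 to 0.965) and in B cell-like cells 1.10 (0.978 to 1.24). The 18 Lin28-/cKit- cells were too few to compare as a class, and markers of fibroblasts summed there to 3123 CPM, against 100 in Lin28+/cKit+ and 113 in Lin28+/cKit- macrophage-like cells. The part of those markers in the differing ratio was not tested.

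Within macrophage-like cells, levels were modestly higher in Lin28+/cKit+ than in Lin28+/cKit- cells. All 8 ratios and their intervals lay above 1, but 0 of 8 reached the 1.5-fold threshold, where 1.6% of 10690 genes were called higher and 4.86% lower. The median log2 ratio was 0.31, against -0.09 for all genes. For Cd74, 12068 CPM in Lin28+/cKit+ cells against 9724 in Lin28+/cKit- cells gave a ratio of 1.24 (1.23 to 1.26). For H2-Aa, 4110 against 3416 gave 1.20 (1.18 to 1.23), and for H2-Ab1 3429 against 2752 gave 1.25 (1.22 to 1.27). The protease gene was closest to equal, with Ctss at 818 in Lin28+/cKit+ and 776 in Lin28+/cKit- cells, a ratio of 1.05 (1.01 to 1.10), and H2-DMb1 was farthest apart at 168 against 116, a ratio of 1.45 (1.31 to 1.61). H2-DMb2 was called higher, at 44.2 in Lin28+/cKit+ and 12.7 in Lin28+/cKit- cells, a ratio of 3.49 (2.63 to 4.70) from 316 and 58 UMIs. With TMM scaling, whose factor ratio was again -0.11 on the log2 scale, H2-DMb1 was called higher too.

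Genes that mark macrophage subtypes differed in the same comparison. Of 10 genes of a resident macrophage set, 7 were called lower in Lin28+/cKit+ than in Lin28+/cKit- macrophage-like cells, Cbr2, Cd163, F13a1, Fcna, Lyve1, Timd4 and Vsig4, with a median log2 ratio of -0.68. Their sum was 2232 CPM in Lin28+/cKit+ and 3463 in Lin28+/cKit- cells. Of 9 measured genes of an inflammatory set, 2 were called higher, the chemokine gene Ccl4 at 1.59 (1.56 to 1.61) and the cytokine gene Il1b at 1.52 (1.43 to 1.61). The part of this shift in the class II ratios was not tested over the class as a whole, but the subtypes are set apart below. Dendritic cell markers summed to 527 CPM in Lin28+/cKit+ and 494 in Lin28+/cKit- macrophage-like cells, B cell markers to 264 and 277. In the other lists of the pathway, 0 of 16 class I genes, 0 of 12 interferon gamma genes and 0 of 10 endosomal protease genes were called in either direction. The transcription list had 1 of 15 called lower, Kat2b, an acetylase that acts with the co-activator, at 0.60 (0.470 to 0.765), and the trafficking list 1 of 14, March8, a ubiquitin ligase for membrane proteins, at 0.654 (0.516 to 0.828).

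**Figure D2:**
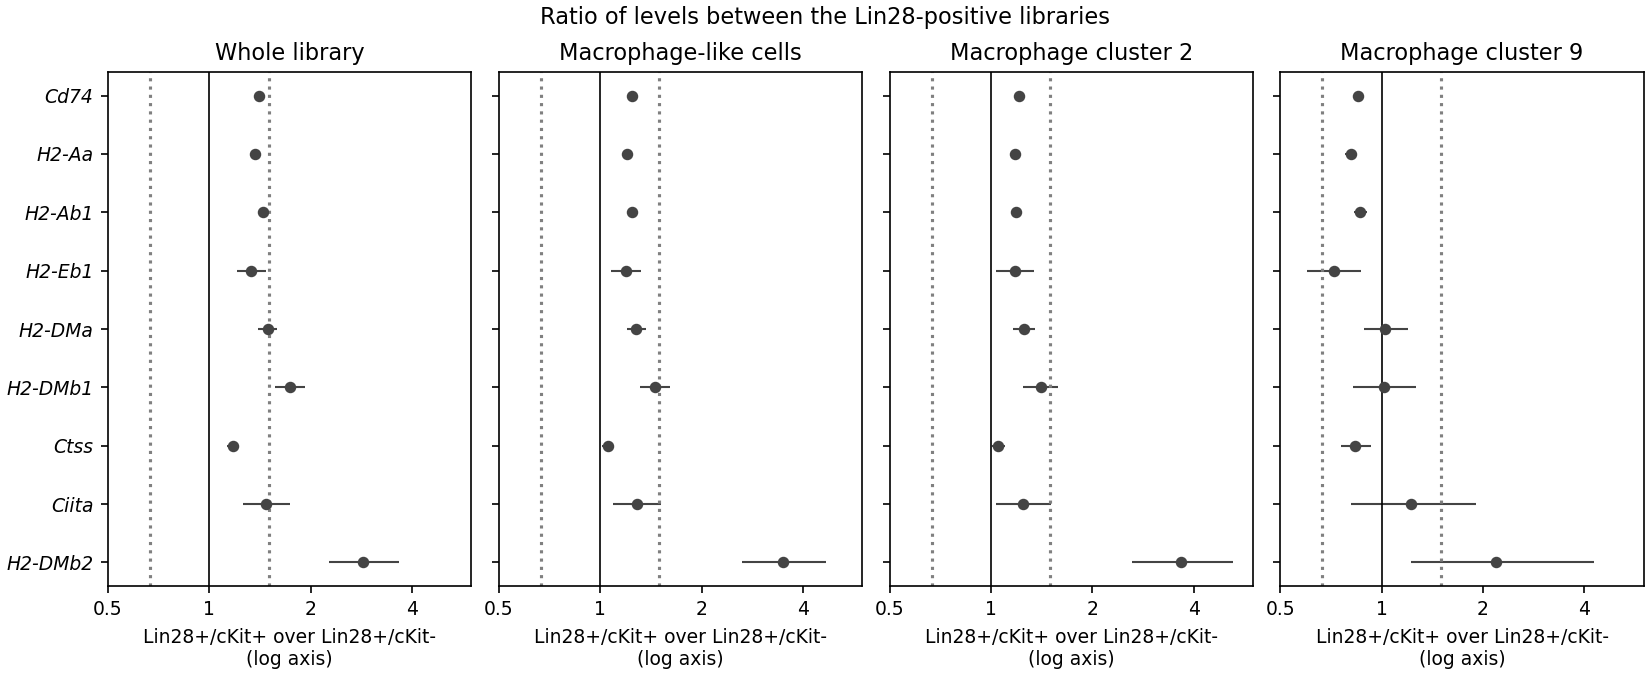
Ratios of levels in Lin28+/cKit+ over Lin28+/cKit- cells (log axis, 95% intervals) for the 8 genes and H2-DMb2, over the whole library, macrophage-like cells, and macrophage clusters 2 and 9. Dotted lines mark 1.5-fold in either direction; most ratios lie above 1 except in cluster 9, where Cd74, H2-Aa, H2-Ab1, H2-Eb1 and Ctss lie below 1.

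Macrophage-like cells fell into a large cluster (cluster 2, led by F13a1, Lyz2, Retnla and Folr2) and a smaller one (cluster 9, led by Il1b, Ccl4 and Ccl3), with a few dividing cells apart. The 8 genes had been left out of the clustering, yet the clusters differ by definition in many genes, so their comparison is a description. The sum of the 8 genes in cluster 9 was 34878 CPM in Lin28+/cKit+ and 41080 in Lin28+/cKit- cells. In cluster 2 it was 18022 in Lin28+/cKit+ and 15092 in Lin28+/cKit- cells. Cluster 9 thus stood above cluster 2 in both libraries, 1.94 times (1.91 to 1.96) in Lin28+/cKit+ and 2.72 times (2.68 to 2.77) in Lin28+/cKit- cells. In the Lin28-/cKit- library 5 cells of cluster 9 had 1.72 times the level of 9 cells of cluster 2.

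In Lin28+/cKit+ cells 6 of the 8 genes were called higher in cluster 9 than in cluster 2, where 2.73% of genes were called higher and 10.9% lower. In Lin28+/cKit- cells 7 of 8 were, where 3.05% of genes were called higher and 9.2% lower. The beta chain gene H2-Eb1 had the largest ratio in both, 2.47 (2.17 to 2.81) from 284 CPM in cluster 9 and 115 in cluster 2 of Lin28+/cKit+ cells, and 4.04 (3.35 to 4.85) from 393 and 97.4 in Lin28+/cKit- cells. Cd74 had 20019 in cluster 9 and 10237 in cluster 2 of Lin28+/cKit+ cells, a ratio of 1.96, and 23459 and 8455 in Lin28+/cKit- cells, a ratio of 2.77. Ctss, at 1.28 (1.21 to 1.36) and 1.61 (1.47 to 1.77), and Ciita, at 1.46 (1.17 to 1.81) and 1.49 (0.971 to 2.21), differed least. Genes of class I presentation were not called in either direction, 0 of 16 in Lin28+/cKit+ and 0 of 15 in Lin28+/cKit- cells. Of the 15 transcription genes 0 were called higher and 1 lower in each, Irf4 in Lin28+/cKit+ at 0.219 (0.0438 to 0.675) from 3 UMIs in cluster 9, and Kat2b in Lin28+/cKit- cells at 0.427 (0.154 to 0.953) from 6.

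Proteases and costimulatory genes split between the clusters. Ctsd, cathepsin D, was lower in cluster 9, at 138 CPM against 282 in cluster 2 of Lin28+/cKit+ cells and at 130 against 328 in Lin28+/cKit- cells. In Lin28+/cKit- cells Ctsb and Ctsl, cathepsins B and L, were also called lower, at 0.563 (0.511 to 0.619) and 0.550 (0.408 to 0.725). Cd83 was higher in cluster 9 in both libraries, 1.57 times (1.49 to 1.65) in Lin28+/cKit+ and 2.00 times (1.86 to 2.16) in Lin28+/cKit- cells. Of 13 trafficking genes measured, 6 were called lower and 1 higher in cluster 9 of Lin28+/cKit+ cells and 3 lower in Lin28+/cKit- cells. March1 was among the 6, at 33.9 against 52.1 CPM, a ratio of 0.650 (0.467 to 0.888).

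Between the Lin28+ libraries the clusters moved in opposite directions, a pattern not seen when the cells were divided by the resident and inflammatory sets. In cluster 2 the summed level was 1.19 times higher (1.18 to 1.21) in Lin28+/cKit+ than in Lin28+/cKit- cells, and all 8 intervals lay above 1. In cluster 9 it was 0.849 times that of Lin28+/cKit- cells (0.834 to 0.864), with 5 of 8 intervals below 1 and 0 above. H2-Eb1 had 284 CPM in Lin28+/cKit+ and 393 in Lin28+/cKit- cells of cluster 9, a ratio of 0.722 (0.601 to 0.870), and H2-Aa 6715 against 8272, a ratio of 0.812 (0.781 to 0.844). The H2-DM genes and Ciita did not move with them, at 1.03 (0.883 to 1.20) for H2-DMa, 1.02 (0.823 to 1.27) for H2-DMb1 and 1.22 (0.809 to 1.91) for Ciita. Cluster 9 made up 24.2% of macrophage-like Lin28+/cKit+ cells (148 of 612) and 11.96% of Lin28+/cKit- cells (33 of 276). Only 33 cells of 1 library stand behind the Lin28+/cKit- value. When each cell was instead placed by the larger of its summed resident and inflammatory sets, the level was higher in Lin28+/cKit+ cells on both sides. On the inflammatory side, which then held 579 Lin28+/cKit+ and 242 Lin28+/cKit- cells, the ratio was 1.19 (1.18 to 1.20), with 8 of 8 intervals above 1. That side held most of the 612 and 276 macrophage-like cells, so its ratio describes nearly the whole class and does not test cluster 9 alone. On the resident side, with 30 and 34 cells, the ratio was 1.38 (1.32 to 1.45). A division by Timd4 and Folr2 UMIs, with which depth also moves, gave both directions. Cells with a Timd4 UMI had 5 of 8 intervals above 1 and 0 below. Cells with Folr2 but no Timd4 UMI had 6 above and 0 below, and cells with neither had 0 above and 3 below.

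Single macrophages varied widely within a cluster. In cluster 2 the 8 genes together took a median of 170 of every 10000 UMIs of a cell in Lin28+/cKit+ and 137 in Lin28+/cKit- cells. In Lin28+/cKit+ cells 10% lay below 19.5 and 10% above 419, and in Lin28+/cKit- cells 10% lay below 12 and 10% above 365. A part of cluster 2 was poor in class II UMIs, 22.8% of its Lin28+/cKit+ and 32.8% of its Lin28+/cKit- cells lying below 50. In cluster 9 the medians were 383 in Lin28+/cKit+ and 413 in Lin28+/cKit- cells, with 3.38% of Lin28+/cKit+ cells below 50 and 0 of 33 Lin28+/cKit- cells, which allows a share of up to 9.09%. Almost every macrophage-like cell had a Cd74 UMI, 99.3% in Lin28+/cKit+ and 97.8% in Lin28+/cKit- cells. Ciita was found in 39.2% and 38.8% of them, or in 6.54% and 5.09% once each cell was thinned to 1000 UMIs, against 0.699% and 0.412% of endothelial-like cells before thinning and 0 of 423 and 0 of 239 after it, which allows up to 0.709% and 1.26% of cells with a Ciita UMI at that depth and sets no limit on cells that express the gene. Median depths were 9950.5 and 13872 UMIs in macrophage-like cells and 5590 and 7679 in endothelial-like cells.

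A finer division of the macrophage-like cells of both Lin28+ libraries spanned a wider range. The lowest sums of the 8 genes were 9265 CPM in subcluster M2, led by S100a6 and S100a4 with Lyve1 and Vsig4 among its leading genes, and 9751 in M7, led by Cd209f and Ccl8. The highest were 35520 in M3, led by Il1b, 32331 in M1, led by heat shock genes with Cx3cr1 among its leading genes, and 29330 in M4, led by Vcam1 and Rsad2. Between Lin28+/cKit+ and Lin28+/cKit- cells, 4 of the 10 subclusters had an interval above 1 (M0, M5, M8 and M9). In 5 the interval lay below 1 (M1, M3, M4, M6 and M7). H2-DMb2 was different, with a ratio over 1 in 10 of 10 subclusters, and an interval above 1 in 6. The ratios lay between 1.16 and 8.17 in 9 of them, and the highest, 17.9 (2.84 to 743) in M2, rests on 19 UMIs against 1. Cells grouped by surface marker genes showed the same gradient: the sum was 14373 in cells with a Timd4 UMI, 20367 in cells with Folr2 but no Timd4 UMI, and 32300 in cells with neither, with median depths of 13540, 10706 and 9029 UMIs. Depth moves with these groups, since a deeper cell is more likely to show any UMI, and its part was not tested. The unnamed shallow cluster 13, led by Cbr2, Retnla and Folr2 and with a median of 775 UMIs per cell, had 16385 CPM in 47 Lin28+/cKit+ cells and 5360 in 59 Lin28+/cKit- cells.

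**Figure D3:**
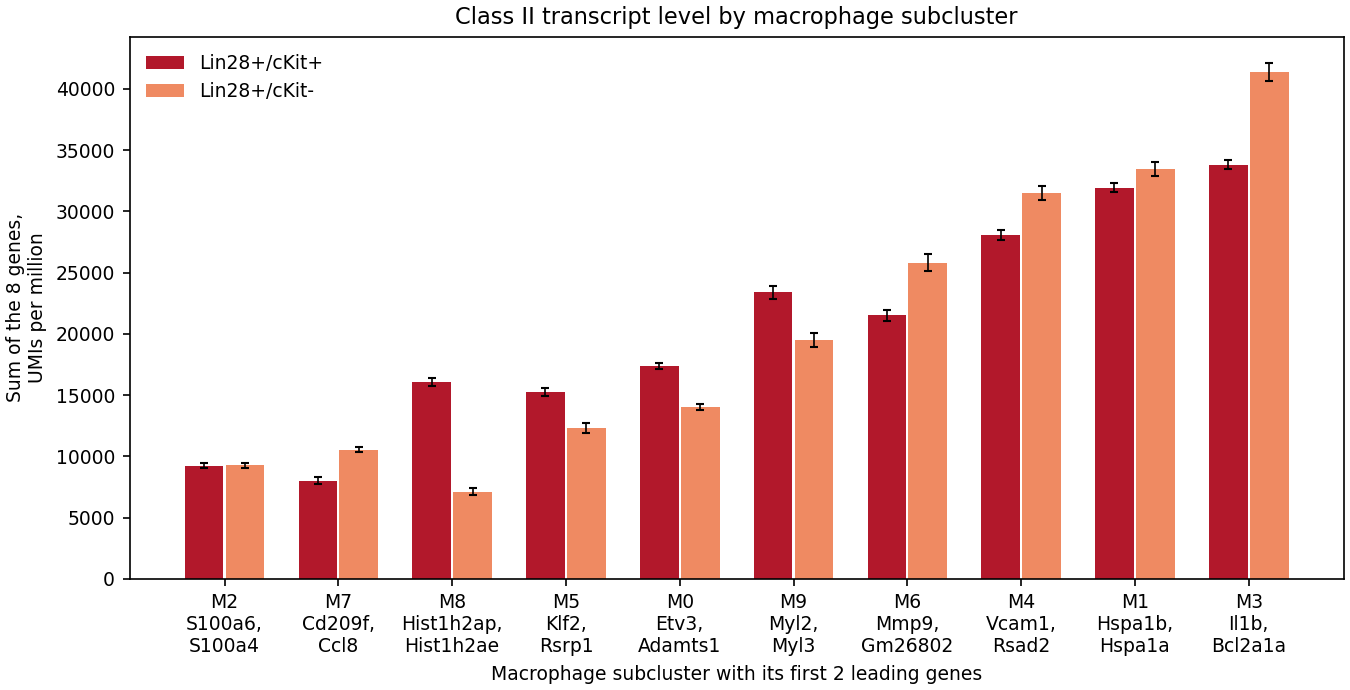
Summed level of the 8 genes in CPM (bars from 0, 95% intervals) in 10 macrophage subclusters, Lin28+/cKit+ left and Lin28+/cKit- right of each pair. Subclusters are ordered by their level over both libraries, from M2 (9265) to M3 (35520).

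Endothelial-like cells had low but unequal levels of the class II genes. Cd74 had 285 CPM in Lin28+/cKit+ and 102 in Lin28+/cKit- endothelial-like cells, against 23.5 in Lin28-/cKit- cells. H2-Aa had 55.3, 26.8 and 4.98, and H2-Ab1 94.9, 34.9 and 8.30, in the same groups. Ctss had 15.3 in Lin28+/cKit+ and 7.58 in Lin28+/cKit- cells and no UMI in the 925 Lin28-/cKit- cells, which allows up to 0.711 CPM. The order was the same for all 4 genes and was also that of the macrophage-like share of each library, a link that was not tested. In Lin28+/cKit- over Lin28-/cKit- cells 3 of the 3 genes with enough UMIs were called higher, where 4.02% of genes were called higher. In Lin28+/cKit+ over Lin28-/cKit- cells 5 of 5 were, where 2.38% of genes were, among them Cd74 at 12.2 (9.85 to 15.2) and Ctss, whose 41 UMIs against 0 gave a lower 95% bound of 16.7 on the ratio. Between Lin28+/cKit+ and Lin28+/cKit- cells 5 of 5 were called higher in the first, where 3.4% of genes were, Cd74 at 2.81 (2.40 to 3.30). The median log2 ratios were 3.52 (with Ctss set against a floor of 3 UMIs), 2.11 and 1.30 for Lin28+/cKit+ and Lin28+/cKit- over Lin28-/cKit- cells and for Lin28+/cKit+ over Lin28+/cKit- cells, against -0.05, -0.04 and -0.01 for all genes. A Cd74 UMI was found in 75.5%, 53.1% and 8.65% of Lin28+/cKit+, Lin28+/cKit- and Lin28-/cKit- endothelial-like cells, or in 25.5%, 12.6% and 2.40% after thinning to 1000 UMIs.

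Macrophage markers had the same order in these cells. The 10 macrophage markers summed to 422 CPM in Lin28+/cKit+ and 253 in Lin28+/cKit- endothelial-like cells, against 10.2 in Lin28-/cKit- cells. All 10 were detected in both Lin28+ libraries and 5 of 10 in the Lin28-/cKit- library, where Adgre1, Csf1r, Fcgr1, Mrc1 and Ms4a7 were at 0. RNA set free from broken macrophages enters other droplets, and would bring all macrophage genes in at about 1 fraction of their macrophage level. In Lin28+/cKit+ endothelial-like cells the 8 genes stood at a median of 2.61% of their macrophage level (range 1.35 to 3.62%) and the 10 markers at 2.82% (2.09 to 4.56%). In Lin28+/cKit- cells the 8 genes stood at 1.05% (0.411 to 1.74%) and the markers at 1.67% (1.29 to 3.25%). The median of the 8 genes thus did not stand above that of the markers in either Lin28+ library. With the markers' median fraction subtracted, 0 genes were called in any of the 3 pairs. In neither Lin28+ library did the interval of any of the 8 genes lie above the amount subtracted. That amount exceeded the level for most genes, such as Cd74 in Lin28+/cKit+ cells, with 341 CPM subtracted from 285. A gene left at 0 could not be called higher, so the count of 0 follows largely from the amount subtracted. Nor was a gene left at 0 called lower, although Cd74 was left at 0 in both Lin28+ libraries against 19.9 CPM in Lin28-/cKit- cells. The count of 0 thus does not show equal levels. The part of free RNA in the endothelial levels was not tested.

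**Figure D4:**
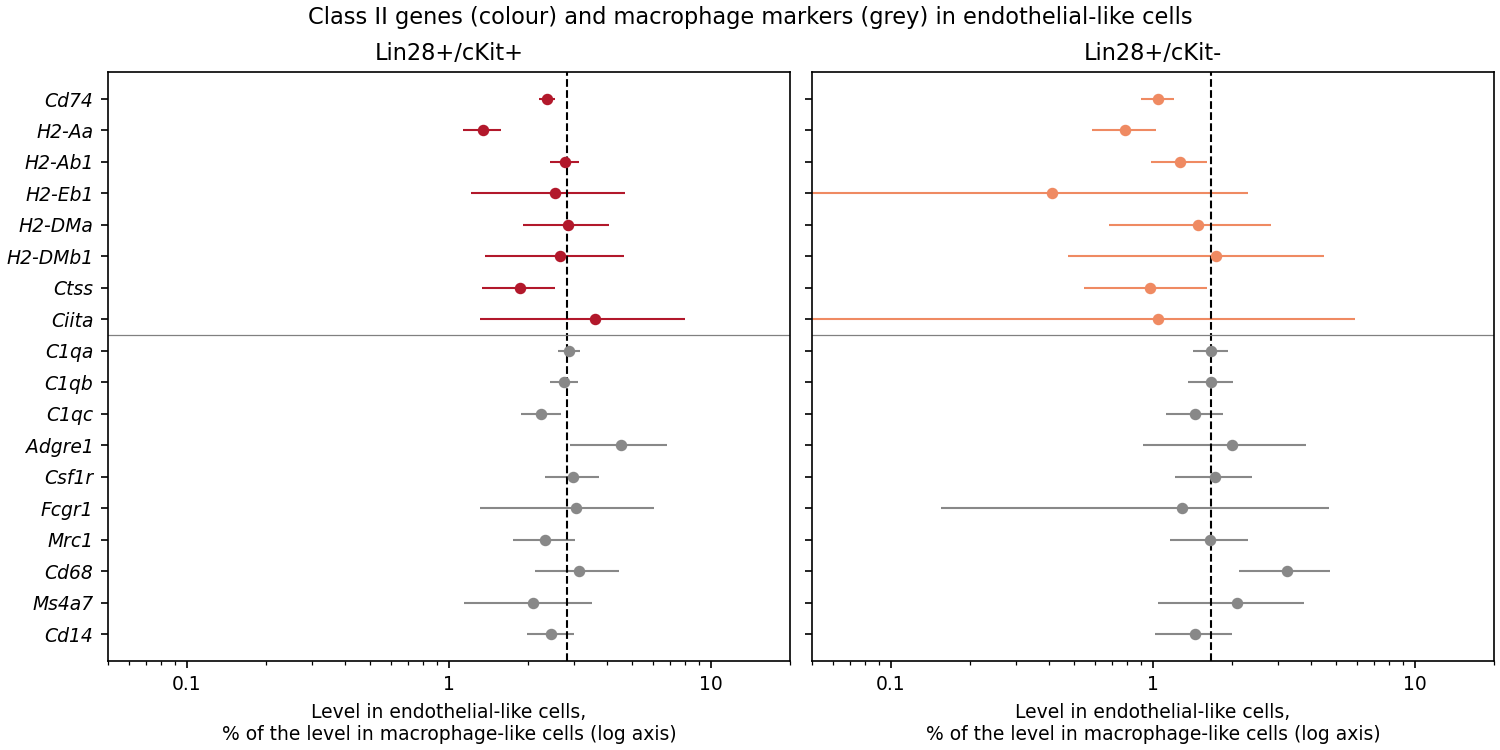
Level in endothelial-like cells as a percent of the level in macrophage-like cells of the same library, for the 8 genes (colour) and 10 macrophage markers (grey), with 95% intervals, Lin28+/cKit+ left and Lin28+/cKit- right. The dashed line is the median of the markers, 2.82% and 1.67%; the 8 genes lie around it in Lin28+/cKit+ cells and mostly under it in Lin28+/cKit- cells.

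Single cells weighed on these sums, since 1 Lin28+/cKit+ endothelial-like cell with 14426 UMIs held 120 of the 1265 class II UMIs of that class and also 32 macrophage marker UMIs. Cells that held 3 or more macrophage marker UMIs were many in the Lin28+ libraries. They were 202 of 429 Lin28+/cKit+, 80 of 243 Lin28+/cKit- and 1 of 925 Lin28-/cKit- endothelial-like cells. Without these cells, 3 of 3 genes with enough UMIs were called higher in Lin28+/cKit+ over Lin28-/cKit- cells, where 2.54% of all genes were. The cells kept could still hold marker UMIs. In Lin28+/cKit- over Lin28-/cKit- cells 3 of 3 were, where 3.71% of all genes were, and in Lin28+/cKit+ over Lin28+/cKit- cells 3 of 4, where 3.23% were. The ratio of H2-Aa to H2-Ab1 UMIs in Lin28+/cKit+ endothelial-like cells was 0.583 (0.473 to 0.716), against 1.20 (1.18 to 1.22) in macrophage-like cells of that library. In Lin28+/cKit- cells it was 0.768 (0.527 to 1.11), against 1.24 (1.21 to 1.27) in macrophage-like cells. In both Lin28+ libraries the intervals of the endothelial-like and macrophage-like ratios did not overlap, and the part of free RNA in this was not tested. In Lin28-/cKit- endothelial-like cells, where little macrophage RNA was present, it was 0.60 (0.332 to 1.06). There, 164 class II UMIs, over 925 cells of which 120 had at least 1, stood beside 43 macrophage marker UMIs. That is 3.81 class II UMIs per marker UMI, against 3.83 in macrophage-like cells of that library. By endothelial cluster the number ran from 1 in cluster 10 (19 beside 19 UMIs) over 3.25 in cluster 1 (39 beside 12) and 5.88 in cluster 6 (47 beside 8) to 14.8 in cluster 8 (59 beside 4). In that library macrophage-like cells held only a minority of the class II UMIs, so the near-equal 3.81 and 3.83 do not show where the endothelial UMIs came from. Their source was not tested.

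H2-Eb1 had a pattern of its own in fibroblast-like cells. In the Lin28-/cKit- library, 80 of its 160 UMIs (50%) lay in fibroblast-like cells, which held 3.90% of the UMIs of the 8 genes together. Of all genes, these cells held 28073405 of the 34031955 UMIs of that library, a larger share than their share of H2-Eb1. Its level there was 2.85 CPM (2.26 to 3.55), near those of H2-Aa at 2.03 (1.54 to 2.63) and H2-Ab1 at 4.03 (3.32 to 4.84), although H2-Eb1 was far scarcer than both in macrophage-like cells. It stood at 1.26% of its macrophage level, which rests on 33 UMIs in 18 cells, while the other 7 genes stood between 0.0437% and 0.207%. The 80 UMIs were spread over 79 of 2767 cells, with at most 2 in 1 cell, and occurred in all 6 fibroblast clusters at 1.76 to 5.11 CPM. Of the 79 cells 13 (16.5%) also had a Cd74 UMI, against 9.94% of all fibroblast-like cells. In the Lin28+ libraries 12 and 34 fibroblast-like cells held 0 and 4 H2-Eb1 UMIs, in the Lin28+/cKit+ and Lin28+/cKit- libraries.

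The 4 genes H2-Aa, H2-Ab1, H2-Eb1 and Cd74 were averaged to find genes with a like pattern over 29 clusters of at least 20 cells in 1 library, on log2 of CPM plus 10. Laptm5, a lysosomal membrane protein of blood cells, was most alike (Pearson's r of 0.984), followed by Bcl2a1b, an anti-apoptotic gene (0.981), and Ncf4, a subunit of the phagocyte oxidase (0.976). Ms4a6c, Lcp1, Rgs2 and Gpr65 had r between 0.969 and 0.976. Of the other members, H2-DMa (0.969) and Ctss (0.968) were close to them, Ciita had 0.953 and H2-DMb1 0.934, at ranks 26 and 53. The 29 points share libraries, and cells of 1 library share depth and free RNA.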

How the data were processed

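Single-cell 3′ RNA libraries of 3 sorted groups of mouse heart interstitial cells were used. Per the submitters' processing notes, Cell Ranger (no version given), build mm10 and Seurat 4.0.2 were used. The deposited tables hold natural log values, ln(1 + x), where x is the UMI count scaled to 10000 per cell, as read from the values. The log was undone and each cell divided by its smallest value, which gave whole UMI counts for 100% of values within 0.01. Each deposited cell had at least 500 UMIs and at most 9.992% mitochondrial UMIs; no cell was removed. The analysis had been laid out for raw counts and was run as laid out on the recovered ones.

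The cells were clustered jointly with scanpy 1.11.5 (2000 variable genes, 30 components, a graph of 15 neighbours, Leiden at resolution 1 with leidenalg 0.10.2, giving 22 clusters). The class II genes and Kit were left out. No batch integration was run, as each group is its own library. Names ending in "-like" come from marker lists, and clusters with fewer than 3 markers or with markers of a second type stayed unnamed. The doublet caller Scrublet marked 26 of 5833 cells (0.446%), was not counted as having worked, and removed no cell. UMIs were summed over cells and scaled to CPM. Intervals are exact Poisson, conditional binomial or Clopper-Pearson, 95% (SciPy 1.17.1), and no test was made, since each group is 1 library. A class was compared where each library held at least 50 of its cells. Thinning to 1000 UMIs left out 236 shallower cells. The calls were tested on simulated Poisson counts with known folds, the model behind the intervals. The simulation held no further variation between cells or libraries and no free RNA, so it checks the calculation only. Named genes are the 8 members, of each list 2 to 4 genes with the largest called ratio in a comparison and the genes not analysed here, the 10 genes most alike, and markers of the classes; a few others (H2-DMb2, Nfya, B2m, Ctsl and Mif among them) were chosen after their values were seen. A gene among those most alike is not reported here. Members, lists and markers were chosen with earlier results of these data known. Alternatives covered scaling (TMM, in an implementation of its own, and totals that leave out haemoglobin, ribosomal protein and mitochondrial genes), cell means, depth, doublet scores, the UMI minimum, clustering resolution, class assignment and free RNA. Promoters are from RefSeq (GRCm38.p6).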

Additional observations from a re-analysis of the deposited data

Results flagged for a closer look

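The summed level of the 8 genes moved in opposite directions in both macrophage clusters between the Lin28+ libraries, which drew attention to both values. In cluster 2, led by F13a1, Lyz2, Retnla and Folr2, the ratio of Lin28+/cKit+ over Lin28+/cKit- cells was 1.19 (95% interval 1.18 to 1.21). In cluster 9, led by Il1b, Ccl4 and Ccl3, it was 0.849 (0.834 to 0.864), and the difference between both ratios was not tested, since each group is 1 library. With cells placed by the larger of their resident and inflammatory sets, the ratios were 1.38 on the resident and 1.19 on the inflammatory side. The lower level in Lin28+/cKit+ cells was thus not seen with that division. Its inflammatory side held most macrophage-like cells, 579 of 612 Lin28+/cKit+ and 242 of 276 Lin28+/cKit-, so it does not test cluster 9 alone. Cells with neither a Folr2 nor a Timd4 UMI had 3 of 8 intervals below 1 and 0 above. Of the 10 finer subclusters, 5 had an interval of the summed level below 1 and 4 above.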

How the results depend on the processing

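In the whole-library comparisons with the Lin28-/cKit- library, all 8 genes were called higher under every alternative run. Over all results, 85 of 127 alternative values for the main results stayed within 1.5 times a count or within the counting interval of a value, and 1 changed direction. Of 641 values for single genes 502 did so, and 2 changed sign; ratios that could not be formed, because subtraction left 0, are not among them. Between Lin28+/cKit+ and Lin28+/cKit- libraries the count of 1 gene became 5 with TMM scaling, 2 with totals that leave out haemoglobin, ribosomal protein and mitochondrial genes, 4 with means over cells at either pseudocount and 4 after thinning to 1000 UMIs. Within macrophage-like cells the count of 0 became 1, H2-DMb1, with TMM scaling and with classes assigned by cell.

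In endothelial-like cells, Lin28+/cKit- over Lin28-/cKit-, the count of 3 became 1 after thinning, 5 with no minimum of UMIs, 5 with classes by cell and 0 after subtraction of free RNA. In Lin28+/cKit+ over Lin28-/cKit- cells the count of 5 became 3 after thinning, 8 with no minimum, 3 without cells holding 3 or more macrophage marker UMIs and 0 after subtraction. Between Lin28+/cKit+ and Lin28+/cKit- cells the count of 5 became 2 after thinning, 3 without such cells and 0 after subtraction. Thinning leaves fewer UMIs, and the other causes were not tested. After subtraction Cd74, H2-Ab1 and H2-Aa were left at 0 in both Lin28+ libraries, against 19.9, 7.30 and 4.05 CPM in the Lin28-/cKit- library, where the fraction subtracted was 0.0204% with 5 of 10 markers at 0. Here H2-DMa turned to a log2 ratio of -3.10 after subtraction in Lin28+/cKit+ over Lin28-/cKit- cells, and Ctss to -0.043 with classes by cell in Lin28+/cKit+ over Lin28+/cKit- cells.

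Alternatives on shares and subtypes, all but the marker sets chosen after seeing the data, gave the following values. The macrophage-like share of class II UMIs was 91.7%, 95% and 93.8% in Lin28+/cKit+ and 95.6%, 97.1% and 97.6% in Lin28+/cKit- cells, at resolution 0.5, with cluster 13 added, and without the 5% of cells scoring highest as doublets. The ratio of cluster 9 over cluster 2 in Lin28+/cKit+ cells was 2.00 without those doublet scores, 1.86 thinned and 1.84 as a mean over cells. In Lin28+/cKit- cells it was 2.49 thinned and 2.55 as a mean. The inflammatory over the resident side of the sets gave 1.85 in Lin28+/cKit+ and 2.15 in Lin28+/cKit- cells. These sides held 579 against 30 and 242 against 34 cells, so their ratio is a different contrast from that of the clusters. Between Lin28+/cKit+ and Lin28+/cKit- cells, the ratio of 0.849 in cluster 9 stood against 1.19 on the inflammatory side of the sets, which held most macrophage-like cells. The cluster 9 ratio was 0.833 without those doublet scores, 0.880 thinned and 0.868 as a mean. The ratio of 1.19 in cluster 2 stood against 1.38 on the resident side of the sets, and was 1.13 without those doublet scores and 1.18 thinned. The endothelial level of the 8 genes in Lin28+/cKit+ cells, 2.23% of the macrophage level, was 2.03% without the top cell of each library and 1.89% without cells of 10 or more class II UMIs. Of the 10 genes most alike, 6 remained with a pseudocount of 1 and 4 with units of at least 50 cells.

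No paired analysis was possible because each group is 1 library. With no replicates, differences between hearts, sorts or library preparations cannot be told apart from the groups, and the 18 macrophage-like and 8 dendritic cell-like Lin28-/cKit- cells limit what can be read from that library.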
